A study of Saccharomyces cerevisiae with 59 samples.

Results

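The genes described here are 10 regulators of anaphase and mitotic exit in budding yeast, SPO12, CDC5, CDC20, CDH1, PDS1, ESP1, CDC14, NET1, DBF2 and CDC15, out of 5590 genes in the deposited tables. They were picked by name, and all 10 were found in each of the 4 tables. SPO12 was included because its gene-body entropy fell in S phase, so that this measure of SPO12 is described and supports nothing. The other measures, RNA above all, had no part in the choice of SPO12. The gene-body nucleosome score, however, draws on the same nucleosome signal as the entropy and is not independent of that choice.

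Haploid W303 yeast of mating type MATa, with BAR1::TRP and URA3::BrdU-Inc and the further alleles ade2-1, can1-100, his3-11,15 and the double mutation leu2-3 leu2-112, was grown in YPD at 30 °C, held in late G1 with 50 ng/mL of the mating pheromone α-factor for 2 h and released. Cells were collected every 10 min through 2 consecutive cell cycles, with the arrest itself as 0 min. All time points shared this strain and treatment. Times are aligned times. Replicate 1 recovered later from the arrest, so that its libraries after the arrest were each taken 10 min later than the aligned time under which they were merged with replicate 2. The description of the replicate 2 MNase-seq library at 10 min places it before release, against its other labels, and which of these holds cannot be told from the merged chromatin values at 10 min. Chromatin was profiled with micrococcal nuclease (MNase-seq, 30 libraries), which leaves DNA fragments that proteins protect, and total RNA was sequenced in parallel (29 libraries). The phases used below were G1 (0 and 10 min), S (20 and 30 min), S/G2 (40 min), G2/M (50 min) and M (60 min) in the first cycle, and G1 (70 min), S (80 and 90 min), S/G2 (100 min), G2/M (110 min), M (120 min), G1 (130 min) and S (140 min) from then on. The authors merged 2 replicates into 1 value per gene and time point, except for RNA at 110 min, which had 1 library. No value below therefore has a standard deviation or an n, no test between time points was possible, and a difference is a difference of merged values only.

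Each time point gave 4 values per gene. The RNA value is named TPM, a unit of RNA abundance scaled for transcript length and library size, in the deposited table. The entropy is the Shannon entropy of the nucleosome signal along the gene body, which is low where nucleosomes sit at fixed positions and high where they are spread. The gene-body nucleosome score measures how much nucleosome signal the gene body holds, and the promoter subnucleosome score is a score of short protected fragments at the promoter. In a culture of many cells, fewer cells that express a gene and less RNA per cell cannot be told apart.

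Anaphase starts when the anaphase-promoting complex (APC/C), a ubiquitin ligase, is switched on by its activator Cdc20 and has the securin Pds1 destroyed, which frees the separase Esp1 to cut the cohesin that holds sister chromatids together. Exit from mitosis then needs the phosphatase Cdc14, which Net1 holds in the nucleolus for most of the cycle. Cdc14 is let out first by the early anaphase release (FEAR) network, in which Spo12, the polo kinase Cdc5 and Esp1 act, and then by the mitotic exit network, a kinase cascade in which Cdc15 activates Dbf2. Free Cdc14 turns on Cdh1, the second activator of the APC/C, and mitotic cyclins are removed. Transcription of many G2/M genes in yeast, the CLB2 cluster, runs through the factor Mcm1 with its forkhead partner Fkh2, while genes of G1/S transcription are read through the factors MBF and SBF.

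The RNA of the 10 genes fell into groups of unlike timing. SPO12, CDC5, CDC20 and DBF2 had their highest value after release at 50 min, in G2/M. PDS1 and ESP1, the securin and separase pair, were highest at 20 min, in S phase, and CDC14 at 40 min. CDH1 and CDC15 hardly varied.

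The mitotic contrast of a gene, used from here on, is its mean log2(RNA value + 1) at 50 and 60 min minus that at 10, 20 and 30 min in the first cycle, and at 110 and 120 min minus that at 70, 80 and 90 min in the second. A contrast of 1 is a difference of 1 log2 unit, and the arrest is not in it. It reached 1 in the first cycle for 4 of the 10 genes, SPO12, CDC5, CDC20 and DBF2, against 1.54% of all genes. In the second cycle it reached 1 for CDC20 alone, against 0.233% of all genes, and in both cycles for 1 of the 10 against 0.143%. The second call rests on the settings, since CDC20 had 0.92 in the second cycle with a pseudocount of 5 and 0.94 with 110 min as the only mitotic time. In the first cycle DBF2 had 0.96 with 60 min alone, 0.97 with a pseudocount of 5 and 0.76 with the arrest counted as G1, and SPO12 had 0.81 with the arrest counted as G1. It was above 0 in both cycles for 5 of the 10 genes, these 4 and NET1, against 10.5% of all genes. PDS1 alone was at -1 or lower in the first cycle, against 3.56% of all genes. The median of the 10 genes was 0.17 in the first and 0.02 in the second cycle, beside -0.15 and -0.07 over all genes.

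**Figure D1:**
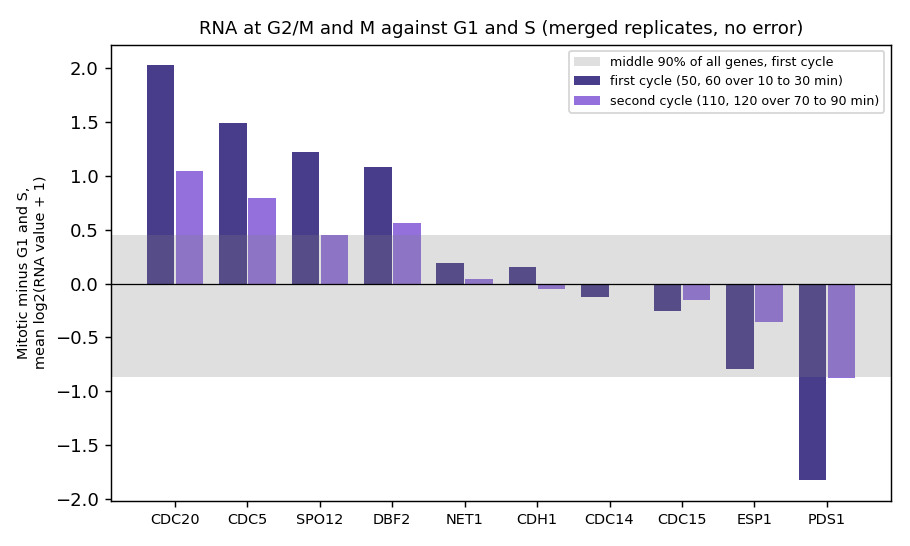
Mitotic minus G1 and S contrast of log2(RNA value + 1) of the 10 genes, as bars for the first cycle (dark) and the second cycle (light), with the middle 90% of all genes in the first cycle as a grey band. CDC20, CDC5, SPO12 and DBF2 stood above the band in the first cycle (2.03, 1.49, 1.22 and 1.08) and PDS1 below it (-1.83). The bars are merged values and carry no error.

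Among the activators of the APC/C, CDC20 varied with the cycle and CDH1 did not. From 0 to 140 min, the RNA value of CDC20 was 18.3, 10.6, 7.66, 17.0, 44.7, 60.0, 39.4, 26.4, 16.3, 18.7, 36.4, 39.3, 46.0, 33.6 and 25.1. CDC20 thus stood 7.82 times higher at 50 min than at 20 min, and 2.83 times higher at 120 min than at 80 min. Its mitotic contrast was 2.03 and 1.05, at or above those of 99.6% and 99.8% of all genes. CDH1 had its lowest value, 15.6, at 30 min and its highest, 18.8, at 70 min, with a mean of 17.7. The ratio of the extremes of CDH1 was 1.20, where the median gene had 1.80, and its mitotic contrast was 0.16 and -0.05 (0.34 and 0.02 with upper-quartile scaling).

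The securin and separase RNAs ran ahead of the mitotic genes. PDS1 had RNA values of 13.0, 53.8, 60.3, 45.1, 26.0, 14.2, 14.1, 32.3, 39.5, 37.4, 26.6, 21.9, 17.0, 25.9 and 34.7 from 0 to 140 min. It was low at the arrest, high in S phase and low again at 50 and 60 min, the time at which CDC20 was near its highest. ESP1 followed the same course with a smaller range, 13.1 at the arrest, 35.1 at 20 min, 15.1 at 60 min, 31.7 at 90 min and 17.5 at 120 min. Mitotic contrasts were -1.83 and -0.88 for PDS1 and -0.79 and -0.36 for ESP1. Over the 15 time points, log2 RNA of PDS1 ran with ESP1 (Pearson r = 0.82) and against CDC20 (r = -0.76, or r = -0.93 without the arrest). Such correlations across time points describe the curves, since neighbouring time points of 1 course are not independent.

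CDC5 and SPO12, whose products both act in FEAR, differed in how they began the course. CDC5 had RNA values of 16.4, 15.1, 26.9, 68.9, 114, 117, 65.3, 43.1, 35.0, 62.2, 88.3, 89.0, 71.2, 51.6 and 47.2 from 0 to 140 min. CDC5 was near its lowest at the arrest and climbed already at 30 min, in S phase. SPO12 had RNA values of 214, 76.6, 55.4, 73.4, 141, 177, 143, 131, 62.6, 51.6, 80.4, 98.1, 108, 89.4 and 69.0 over the same times. SPO12 was thus highest of all at the arrest, higher than at its G2/M peak of 177, fell to 55.4 in S phase at 20 min, and peaked again at 50 min and at 120 min. In order of level, the arrest came first, then 50, 60, 40 and 70 min, and 20 and 90 min came last. How far neighbours in that order, such as 141 at 40 min and 143 at 60 min, lie within the replicate error cannot be read from merged values.

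The mitotic contrast of SPO12 was 1.22 in the first cycle and smaller, 0.45, in the second, at or above those of 98.8% and 97.5% of all genes. The values at 70 min bear on the second one, since SPO12 still had 131 in that G1 sample, and 62.6 only at 80 min. The second contrast was 0.19 with 70 and 80 min as G1 and S, and 0.85 without 70 min, a setting chosen after seeing the data. At the arrest SPO12 and CDC5 stood on opposite sides. The log2 RNA of SPO12 at the arrest minus the mean of 10 to 60 min was 1.06, and it was -1.66 for CDC5. SPO12 alone of the 10 genes was at least 1 log2 unit higher at the arrest, a share near the 9.5% of all genes, and CDC5 and PDS1 (-1.17) were at least 1 lower, against 8.82%.

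Of the genes of Cdc14 and its nucleolar anchor, CDC14 varied little and with its own timing. CDC14 had its lowest RNA value, 43.9, at the arrest, 77.0 at 40 min, 50.2 at 70 min, 73.8 at 90 min and 56.9 at 130 min. Its mitotic contrast was -0.12 and -0.01 (0.07 in both cycles once the time points were scaled by their upper quartile), with high values on both sides of the comparison, such as 76.6 at 30 min and 67.6 at 50 min. NET1 varied less, with 61.8 at the arrest, 97.0 at 50 min and 90.0 at 100 min, and contrasts of 0.19 and 0.04 (0.39 and 0.12 with upper-quartile scaling). After release, the highest values of NET1 and CDC14 were 1.25 and 1.53 times their lowest between 10 and 70 min.

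The mitotic exit network kinases also differed from each other. DBF2 had RNA values of 61.4, 31.6, 20.8, 21.7, 38.9, 57.4, 48.1, 37.2, 24.1, 23.2, 31.8, 36.6, 46.4, 40.8 and 32.5 from 0 to 140 min. Like SPO12 it was highest at the arrest, low in S phase and high again at 50 and 120 min. Its contrasts were 1.08 and 0.57, and its value at the arrest was 0.83 log2 units above the mean of 10 to 60 min. CDC15, which encodes the kinase that acts on Dbf2, had 12.1 at the arrest and 8.74 at 120 min, with contrasts of -0.26 and -0.15 (-0.08 and -0.08 with upper-quartile scaling). RNA was highest of all times at the arrest for 3 of the 10 genes, SPO12, DBF2 and CDC15, against 32.8% of all genes. Among the times from 10 to 70 min it was highest at 50 min for 5 of the 10 genes, against 6.37% of all genes.

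**Figure D2:**
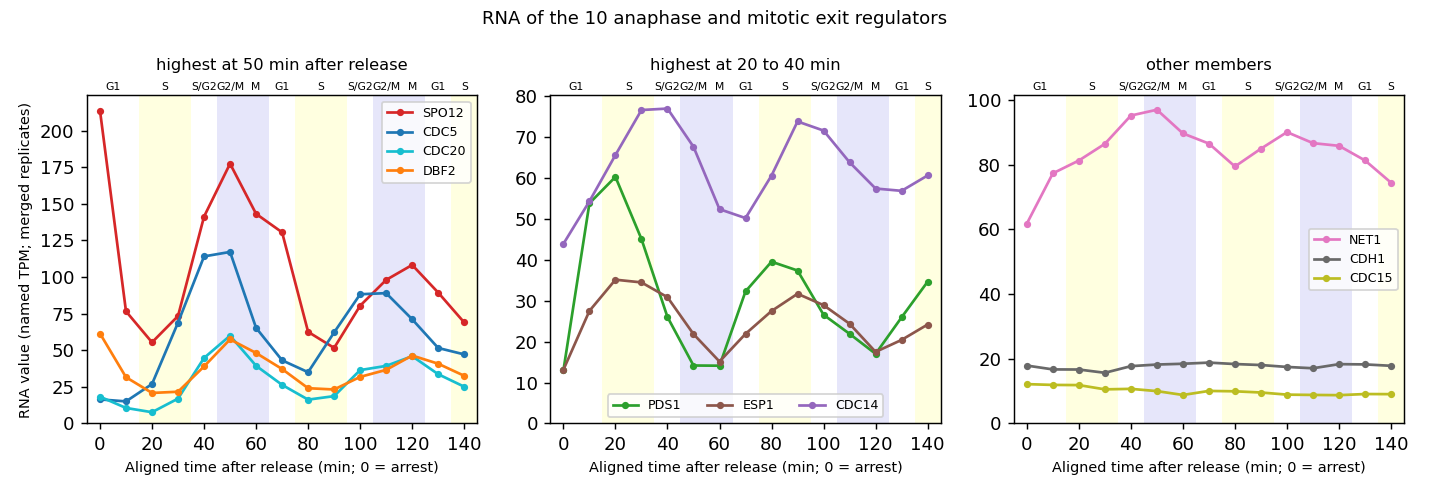
RNA value (named TPM, y axis) of the 10 genes against aligned time after release in min (x axis), 1 point per merged time point, with S phase shaded yellow and G2/M and M shaded violet. The left panel has SPO12, CDC5, CDC20 and DBF2, all with a peak at 50 min, where SPO12 reached 177, the middle panel has PDS1, ESP1 and CDC14, which peaked at 20 to 40 min, and the right panel has NET1, CDH1 and CDC15. SPO12 and DBF2 are the lines of the left panel that start at their highest value, 214 and 61.4.

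SPO12 and DBF2 had like RNA courses. Among 5203 genes with a mean RNA value of at least 5, DBF2 was the one most like SPO12 in log2 RNA over the 15 time points (r = 0.91, and 0.89 without the arrest). Next came ALR2, a magnesium transporter gene (r = 0.90), NDL1 (r = 0.90), STP4 (r = 0.87) and MIG2, which encodes a repressor of glucose-repressed genes (r = 0.86). Without the arrest MIG2 was closer to SPO12 (r = 0.97) than DBF2 was. NDL1, SKN1, ALR2, SPO12 and RTR1 were the 5 nearest to DBF2, with r between 0.91 and 0.97. Among the 5 nearest to CDC5 were YBR138C, SWI5, IRC8 and NUF2 (r = 0.99 for each), of which SWI5 encodes a transcription factor of the M/G1 boundary and NUF2 a kinetochore subunit. The 5 nearest to CDC20 were MTC6 (r = 0.95), IQG1, MOB1, KIN3 and YNL058C, with r of at least 0.93. SPO12 and CDC5 had r = 0.14 with each other over all times, and 0.54 without the arrest.

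The bases upstream of the transcription start are shown for the 4 genes with a mitotic contrast of at least 1 in the first cycle. SPO12 and DBF2 can thus be set beside CDC5 and CDC20. Motifs were searched on both strands in the 300 bases before the start site of each of the 5590 genes. They were the core of an Mcm1 site (CC, any 6 bases, GG), the forkhead site GTAAACA, the SBF site CNCGAAA and the pheromone response element TGAAACA, bound by Ste12. Capitals mark matches to these motifs, read from 5′ to 3′ on the strand of the gene (TGTTTCA is TGAAACA on the other strand). The stretches come from the R64 genome and end with the base before the start site, for SPO12 over 300 bases (chrVIII:401041-401340, plus strand), for DBF2 over 200 bases (chrVII:667928-668127, plus strand), and likewise for CDC5 (chrXIII:271472-271671, minus strand) and CDC20 (chrVII:289469-289668, plus strand).
SPO12: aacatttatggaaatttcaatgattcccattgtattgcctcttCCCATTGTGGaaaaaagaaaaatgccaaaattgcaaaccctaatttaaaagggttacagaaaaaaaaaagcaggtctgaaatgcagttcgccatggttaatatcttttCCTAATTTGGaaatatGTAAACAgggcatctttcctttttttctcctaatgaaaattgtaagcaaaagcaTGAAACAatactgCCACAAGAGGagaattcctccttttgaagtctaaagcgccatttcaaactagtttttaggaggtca
DBF2: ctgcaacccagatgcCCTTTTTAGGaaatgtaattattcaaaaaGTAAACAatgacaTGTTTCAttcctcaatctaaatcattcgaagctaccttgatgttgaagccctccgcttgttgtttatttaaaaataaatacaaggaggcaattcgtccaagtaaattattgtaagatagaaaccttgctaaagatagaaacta
CDC5: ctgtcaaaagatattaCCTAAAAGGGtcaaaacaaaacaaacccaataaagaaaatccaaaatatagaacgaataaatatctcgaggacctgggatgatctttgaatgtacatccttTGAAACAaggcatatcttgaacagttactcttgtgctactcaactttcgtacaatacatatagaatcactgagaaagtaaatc
CDC20: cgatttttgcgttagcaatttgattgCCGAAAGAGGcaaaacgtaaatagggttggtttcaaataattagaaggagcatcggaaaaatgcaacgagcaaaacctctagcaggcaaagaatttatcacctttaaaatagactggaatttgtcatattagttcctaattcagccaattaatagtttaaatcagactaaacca

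SPO12 and DBF2 had the same kinds of match near each other. SPO12 had Mcm1 cores at 257 to 248, 149 to 140 and 66 to 57 bases before the start, a forkhead site at 133 to 127 and a pheromone response element at 79 to 73. DBF2 had an Mcm1 core at 185 to 176, a forkhead site at 156 to 150 and a pheromone response element on the other strand at 143 to 137. An Mcm1 core and a forkhead site at most 30 bases apart were found for SPO12 and DBF2 alone among the 10 genes, and in 47 of all 5590 regions (0.841%). The window of MTC6, the divergent neighbour of SPO12, overlaps that of SPO12 and holds the very same matches, read on the other strand. Before the start of MTC6, the Mcm1 cores lie at 268 to 259, 185 to 176 and 77 to 68 bases. The forkhead site lies at 198 to 192 and the pheromone response element at 252 to 246. The shared pair thus puts the regions of both genes among the 47. The RNA of MTC6 was not high at the arrest.

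Singly, the motifs were less rare. The Mcm1 core was in 33.7% of all regions and upstream of 5 of the 10 genes, SPO12, CDC5, CDC20, NET1 and DBF2. The forkhead site was in 6.83% of all regions and upstream of 4 of the 10, SPO12, ESP1, CDC14 and DBF2. The pheromone response element was in 7.58% of all regions and upstream of 6 of the 10, SPO12, CDC5, ESP1, CDC14, NET1 and DBF2. At the arrest, the log2 RNA of these 6 relative to 10 to 60 min was 1.06 for SPO12 and 0.83 for DBF2, and between -1.66 and -0.50 for the other 4. The SBF site was in 16.4% of all regions and upstream of none of the 10. These matches are letters in a window, and no binding was measured.

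The entropy of most genes was higher in S phase, and that of SPO12 was lower. The S phase contrast of entropy is taken here on z-scores of each gene over the 15 time points, as the mean of 20 and 30 min minus that of 0, 10, 50 and 60 min in the first cycle, and the mean of 80 and 90 min minus that of 70, 110, 120 and 130 min in the second. Its median over all genes was 1.57 and 0.98. It was under 0 in both cycles for SPO12, CDC5 and DBF2, against 1.97% of all genes, and in the first cycle for the same 3 against 4.87%. SPO12 was chosen on this contrast, so that nothing is read from its place in these counts, and the others are 2 of 9. SPO12, chosen on it, had -2.44 and -1.40. Ranked by the smaller of the 2 falls, YKR041W led (-1.63 and -1.43), SPO12 came next and YML119W after it (-1.20 and -1.18), while DBF2 was at rank 57 and CDC5 at rank 63.

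The entropy of SPO12 ran 6.07, 5.94, 5.79, 5.80, 5.90, 5.998, 5.93, 5.94, 5.85, 5.88, 5.95, 5.98, 6.01, 5.96 and 5.88 from 0 to 140 min. It was highest at the arrest and lowest at 20 min, in S phase, and the median gene had 5.74 and 5.84 at these times. SPO12 was thus 0.33 above the median gene at the arrest and 0.05 below it at 20 min, its only 2 values under the median being those of 20 and 30 min. The exponential of an entropy gives the number of equally filled positions that would have it, if natural logarithms were used, and for SPO12 this was 432 at the arrest and 327 at 20 min. The base of the logarithm and the length of the window are not given in the sources used here, and the largest entropy in the table was 6.21, as is the natural logarithm of 500. SPO12 is a short gene of 522 coding bases, and of 526 genes within 100 bp of that length, 10 (1.90%) were lower in S phase in both cycles.

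DBF2 and CDC5 had smaller contrasts below 0, which did not all hold up. DBF2 had entropies of 6.06, 5.96, 5.94, 5.97, 5.95, 5.98 and 5.99 from 0 to 60 min, and then 5.99, 6.02, 5.97, 5.99, 5.98, 6.02, 6.01 and 6.02. Its contrast was -1.39 in the first cycle, a value to which the arrest adds, since it was -0.71 without the arrest, and -0.24 in the second. Without 90 min the second-cycle contrast of DBF2 was 0.42. CDC5 had 5.68, 5.67, 5.78, 5.81, 5.92, 5.97 and 5.94 from 0 to 60 min, and between 5.87 and 5.94 afterwards. The entropy of CDC5 thus climbed between S phase and G2/M, more so in the first cycle than in the second (5.89 at 80 min and 5.94 at 110 min), and its contrasts were -0.21 and -0.25. With S/G2 counted as S phase the first of these was 0.26, and without 50 min or without 60 min it was 0.35 and 0.25, so that the direction for CDC5 in the first cycle rests on single time points. Entropy was highest at the arrest for SPO12 and DBF2, against 4.62% of all genes, and nothing is read from this count, since the arrest is part of the contrast on which SPO12 was chosen.

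The other 7 genes were higher in S phase in both cycles, as most genes were. Their contrasts were 1.18 and 0.43 for CDC20, 1.60 and 0.68 for PDS1, and between 2.06 and 2.59 in the first and 1.13 and 1.61 in the second cycle for ESP1, CDC14, NET1, CDH1 and CDC15. With the median course of all genes removed, CDC20 (-1.36 and -1.21) and PDS1 (-0.09 and -0.59) were below 0 in both cycles. CDH1 and CDC15 reached their highest entropy, 6.01 and 5.92, at 20 min, and had 5.75 and 5.68 at the arrest. CDC20 was the flattest of the 10, with all its values between 5.91 and 6.01. PDS1, between 5.50 and 5.70, was the lowest of the 10 at all times but 60 and 70 min, where NET1 was lower, and it lay below the median gene at all times.

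**Figure D3:**
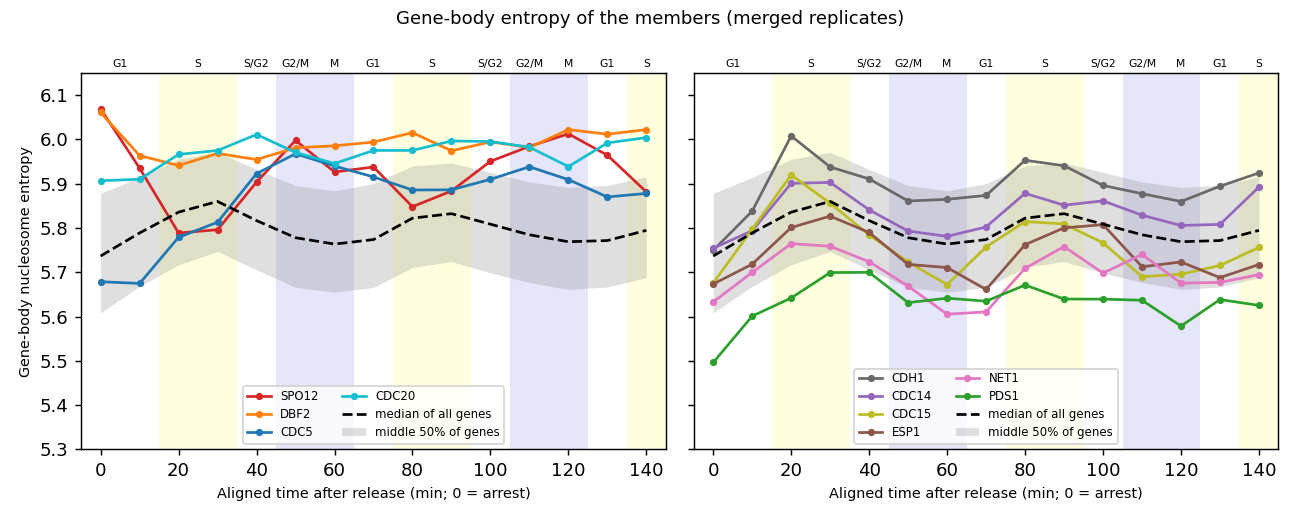
Gene-body nucleosome entropy (y axis) of the 10 genes against aligned time after release in min (x axis), with the median of all genes dashed and the middle 50% of genes grey, S phase shaded yellow and G2/M and M violet. In the left panel SPO12 dips to 5.79 at 20 min while the median gene is at 5.84, and CDC5 climbs to 5.97 at 50 min. In the right panel CDH1 and CDC15 peak at 20 min (6.01 and 5.92) with the median gene near its highest.

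Relative to the median gene, entropy was high when RNA was high in SPO12, CDC5, CDC20 and DBF2, but not in NET1. The RNA of NET1 was also highest at 50 min. With no median subtracted, the entropy of CDC20 was 5.97 at 50 min and 5.94 at 120 min, its RNA peaks. It was higher, 5.996, at 90 min, when its RNA value was 18.7. For r, the median of all genes at each time point was subtracted from log2 RNA and from entropy. Over the 15 time points, r was 0.75 in SPO12, 0.78 in CDC5, 0.73 in CDC20 and 0.76 in DBF2, while the median gene had 0.18. An r of at least 0.7 was found in these 4 of the 10 genes, against 8.77% of all genes. Without the arrest r was 0.67, 0.74, 0.73 and 0.70. For the other 6 genes it lay between -0.07 (NET1) and 0.48 (ESP1). The entropy of SPO12 enters the choice of this gene, and its r is given as a description like the rest.

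The gene-body nucleosome score of SPO12 ran the other way. It was 0.0284 at the arrest, 0.0365 at 10 min, 0.0426 and 0.0424 in S phase at 20 and 30 min, 0.0325 at 40 min, 0.0338 at 50 min and 0.0362 at 60 min. In the second cycle it was 0.0427 and 0.0419 in S phase, at 80 and 90 min, and 0.0301 at 110 min. SPO12 thus held least nucleosome signal at the arrest, where its RNA and entropy were highest, and most in S phase. Relative to the median gene, its score at 50 and 60 min over 10, 20 and 30 min was -0.22 on the log2 scale, and -0.23 for the second cycle. CDC5 had -0.23 and -0.08. The ratio was under 0 in both cycles for 6 of the 10 genes, against 28.6% of all genes, the others being CDC20, CDC14, DBF2 and CDC15, with values between -0.16 and -0.01. SPO12 is in this count, although its choice rested on entropy, which draws on the same nucleosome signal as this score. Log2 RNA and log2 of this score, both relative to the median gene, had r = -0.81 in SPO12 and -0.71 in CDC5. The median of this r over all genes was -0.21. The study's methods divide nucleosome scores by DNA copy number, which changes in S phase, and whether the deposited gene-body table includes that step is not stated.

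At the promoters, the subnucleosome score followed RNA for CDC20 and CDC5, and little for SPO12. The score over the median gene of the same time point is used here on the log2 scale, because the score of the median gene itself was lower late in the course, at 0.0191 at 130 min, beside 0.0263 at the arrest. CDC20 was at -0.11, -0.17, -0.20 and -0.21 from 0 to 30 min, at 0.04, 0.33 and 0.44 from 40 to 60 min, and back at 0.03 and -0.18 at 70 and 80 min. Its promoter score thus crossed that of the median gene between S phase and G2/M, and its mitotic over G1 and S ratio was 0.57 in the first and 0.28 in the second cycle, at or above 99.6% and 97.8% of all genes. For CDC5 the ratio was 0.25 and 0.15, for DBF2 0.26 and 0.21, and for CDC14 0.36 and 0.15. Without subtraction of the median gene, the ratios of the second cycle were smaller, at 0.14 for CDC20, 0.0034 for CDC5, 0.064 for DBF2 and 0.0075 for CDC14.

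SPO12 had a ratio of -0.01 in the first cycle, in which its RNA contrast was 1.22, and 0.17 in the second. Its promoter score lay 0.54 to 0.97 above the median gene at all times, 0.56 at the arrest, when its RNA was highest, and 0.54 at 20 min, when its RNA was near its lowest. Log2 RNA and the promoter score, both relative to the median gene, had r = -0.05 in SPO12. They had 0.90 in CDC5, 0.83 in CDC20, 0.44 in DBF2 and 0.15 in the median gene. The ratio was above 0 in both cycles for 6 of the 10 genes, CDC5, CDC20, PDS1, CDC14, DBF2 and CDC15, against 30.1% of all genes, but PDS1 was at -0.06 in both cycles without the subtraction. The second ratio of CDC15 was -0.03 with 110 min as the only mitotic time and 0.36 with 120 min. The levels differed more than the changes did, with DBF2 between 1.29 and 1.76 above the median gene and CDC15 between 1.02 and 1.64 below it.

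**Figure D4:**
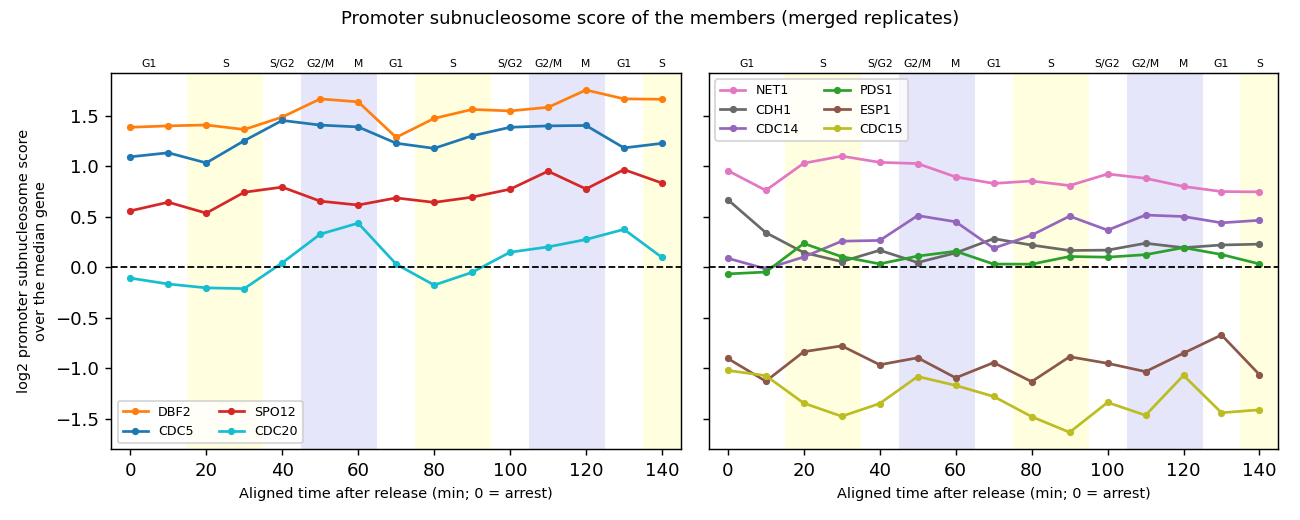
Promoter subnucleosome score of the 10 genes over that of the median gene, on a log2 scale (y axis, 0 is the median gene), against aligned time after release in min (x axis), with S phase shaded yellow and G2/M and M violet. CDC20 moves above 0 between 30 min (-0.21) and 60 min (0.44) and again in the second cycle, while SPO12 stays between 0.54 and 0.97. Points are merged values without error.

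The neighbours of SPO12 share its sequence and some of its signal. SPO12 (YHR152W) lies on chromosome VIII with its coding sequence at chrVIII:401434-401955 on the plus strand (R64). Upstream, MTC6 is read away from it on the minus strand, with start sites 325 bp apart, so that the promoter scores of the 2 genes may cover some of the same DNA (the window is not given in the sources used here). Downstream, SPO16, which acts in meiotic crossover formation, is read towards it, and the 2 transcripts overlap by 199 bp. MTC6 had RNA values of 26.2 at the arrest, 22.3 at 20 min, 47.3 at 50 min, 26.7 at 80 min and 37.6 at 120 min. It peaked at the same times as SPO12 without the high value at the arrest, and their log2 RNA had r = 0.61 over all times and 0.87 without the arrest.

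SPO16 ran opposite to SPO12. Its RNA value was 0.62 at the arrest, 22.3 at 10 min, 18.2 at 20 min, 1.61 at 50 min, 14.7 at 70 min, 3.59 at 110 min and 9.77 at 130 min. It was lowest at the arrest and again at 50 min, the 2 highest times of SPO12, and r between them was -0.68, or -0.55 without the arrest. The library kit keeps the strand, but whether the counting used it is not stated, and where it did not, reads of the 199 bp shared by SPO12 and SPO16 cannot be told apart. The SPO16 value of 0.62 stood beside 214 for SPO12 at the arrest. The gene-body entropy was 5.77 at 20 min and 5.70 at the arrest in MTC6, and 5.82 and 5.68 in SPO16. MTC6 had S phase contrasts of 0.02 and -0.42, below the medians of all genes, and was highest at 50 min, at 5.85.

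**Figure D5:**
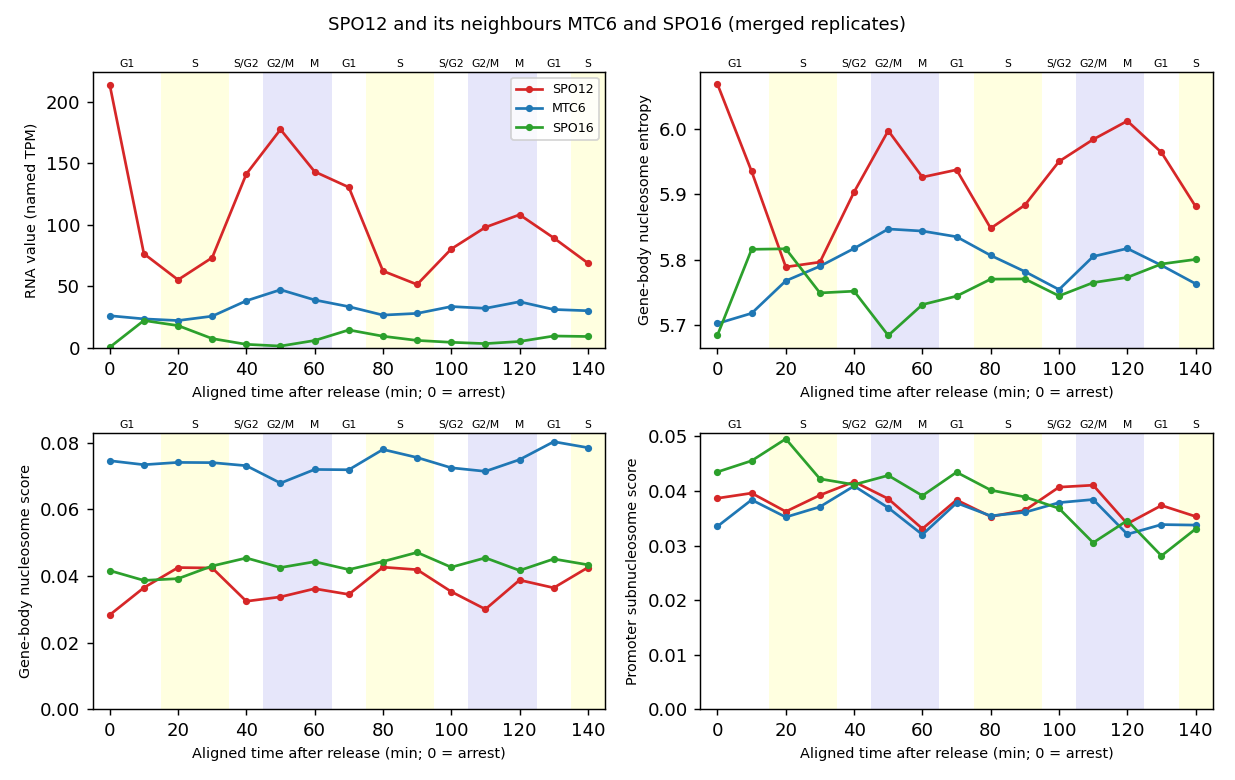
The 4 measures of SPO12 and its neighbours MTC6 and SPO16 against aligned time after release in min (x axes), with RNA value, gene-body entropy, gene-body nucleosome score and promoter subnucleosome score on the y axes, and S phase shaded yellow and G2/M and M violet. SPO12 alone of the 3 begins at its highest RNA value (214) and entropy (6.07), while SPO16 begins at its lowest RNA value (0.62). The promoter scores of SPO12 and MTC6, which share an intergenic region, run close together.

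The genes most like SPO12 in entropy, with the median course of all genes removed, were STP4 (r = 0.95), YHL015W-A, PHO5, MCH5 and BAR1 (r = 0.94), among 5590 genes. Without that removal, STP4 alone of these had an S phase contrast under 0 in both cycles, at -0.39 and -0.15. The contrasts were -1.70 and 0.51 for PHO5, 1.41 and -0.08 for YHL015W-A, 1.49 and 0.83 for MCH5, and 1.92 and 1.53 for BAR1. PHO5 encodes a secreted acid phosphatase and MCH5 a riboflavin transporter. BAR1, the protease that degrades α-factor, is the locus this strain carries as BAR1::TRP. STP4 was also among the 5 genes nearest to SPO12 in RNA.

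Most genes around these 10 in the same pathways did not reach a mitotic contrast of 1. Of all genes, 1.54% reached it in the first cycle. Of 13 subunits of the APC/C, 0 reached a mitotic contrast of 1 in the first cycle, and the list median was -0.12 and -0.06, near that of all genes. APC1, its scaffold, had 0.51 and 0.20, and CDC23 had -0.25 and -0.19. Of 9 further genes of the mitotic exit network and its regulators, 1 reached 1 in the first cycle. This was MOB1, which encodes the partner of the Dbf2 kinase, with 1.17 and 0.67, while NUD1, the scaffold of the network at the spindle pole, had -0.75 and -0.63. The list medians were -0.31 and -0.34.

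Of 8 further FEAR and Cdc14 release genes, BNS1 alone reached 1 in the first cycle (1.22 and 0.20), against 1.54% of all genes. It is the close paralogue of SPO12 and was named here after its values were seen. SLK19, a kinetochore and FEAR component, had -1.27 and -0.87, and ZDS2 had -0.97 and -0.59. BNS1 and SPO12 had like contrasts in the first cycle but not at the arrest, where BNS1 had an RNA value of 19.4, its lowest, and SPO12 214, its highest. BNS1 reached 60.0 at 60 min and 41.4 at 120 min. MOB1 and BNS1 were also the genes of their lists with lower entropy in S phase in both cycles, at -0.33 and -0.66 for MOB1 and -0.37 and -0.29 for BNS1. Log2 RNA and entropy, both relative to the median gene, had r = 0.89 in MOB1 and 0.82 in BNS1.

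The CLB2 cluster served as a mark of G2/M in the cultures. Of 10 such genes outside the members, 9 reached a contrast of 1 in the first cycle but 0 did so in the second, while 10 of 10 were above 0 in both, with list medians of 1.59 and 0.69. SWI5 had 1.98 and 0.99, and HST3 1.84 and 0.88. All of the 6 G1/S markers were below 0 in both cycles, with medians of -1.43 and -1.06. The 5 M/G1 markers had medians of 2.20 and -0.31. SWI5 and HST3 were at -2.57 and -2.10 at the arrest relative to 10 to 60 min, and CDC5 was at -1.66, whereas SPO12 and DBF2 were at 1.06 and 0.83.

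By position, CDC5 (chrXIII:269019-271136) and CDH1 (chrVII:492474-494174) lay close to a centromere, at 1987 and 3656 bp. Within 20 kb of a centromere were 2 of the 10 genes, against 5.67% of all genes. SPO12 lay 9406 bp from the nearest replication origin, ARS818, and the other 9 genes between 2084 bp (NET1) and 25057 bp (ESP1) from theirs.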

How the data were processed

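MNase-seq and total RNA-seq libraries were grouped by aligned time from their labels. Per the submitters' processing notes, the authors aligned reads with Bowtie 0.12.7 to sacCer3 (R64). Their methods keep uniquely mapped fragments, subsample them to equal numbers and merge replicates. All 4 deposited tables hold a score from the authors. The RNA score is named TPM, but its column sums over the listed genes differed between time points, and the counter is not given in the sources used here. Nor is the scaling of the promoter score. The tables hold no counts behind a value, so that no interval could be given.

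Contrasts were computed with Python 3.11.15, numpy 2.4.6 and pandas 2.3.3, with a pseudocount of 1 for RNA, and figures with matplotlib 3.10.9. The script was tested on simulated data. Gene positions of all 10 genes were those of R64. The genes, lists and contrasts were chosen with earlier results of these data known. From each pathway list, the genes past 1 in both cycles were named, or else the 2 with the largest smaller absolute contrast. Likeness was searched for SPO12, CDC5, CDC20 and DBF2. Alternatives were other time points, pseudocounts, scalings and baselines. Some items are not reported here.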

Additional observations from a re-analysis of the deposited data

How the results depend on the processing

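No paired analysis was possible because the tables merge the replicates, and leaving out a replicate was not run for the same reason. All of the following are values without error. The count of genes with an RNA contrast of at least 1 in both cycles was 1, and 2 with 10 and 20 min and 70 and 80 min as G1 and S, 0 with 100 and 120 min as the second mitotic times, 0 with 50 and 110 min only and 0 with a pseudocount of 5. The SPO12 RNA contrast was 0.81 in the first cycle with the arrest included, and in the second 0.19 with 70 and 80 min as G1 and S and 0.85 without 70 min, an alternative chosen after seeing the data. The count of genes with lower entropy in S phase was 3, and 5 with the median time course removed (CDC20 and PDS1 added), and 2 to 3 leaving out single time points. Leaving out single times put the SPO12 entropy contrast at -2.67 to -2.06 and -1.63 to -1.17, that of CDC5 at -0.73 to 0.35 and -0.39 to -0.14, and that of DBF2 at -1.83 to -0.71 and -0.91 to 0.42. The CDC5 entropy contrast of the first cycle reversed to 0.26 with S/G2 counted as S phase. The SPO12 promoter ratio of the first cycle was 0.035 with 10 and 20 min as G1 and S, 0.013 with 50 min only, -0.032 with 60 min only and -0.098 without subtraction of the median gene, and that of the second 0.079 with 120 min only and 0.032 without subtraction. The cause of these shifts was not tested. Scaling to the upper quartile moved the median RNA contrast of all genes to 0.04 and 0.01, and that of CDC14 in the first cycle to 0.07. Among all values and counts recomputed for the 10 genes, 118 for RNA, 83 for entropy and 32 for the promoter kept their sign and a size within 1.5 times. Of the others, 42 for RNA, 35 for entropy and 48 for the promoter moved further, changed sign or crossed 1. The 35 for entropy include changes from higher to lower in S phase. One was CDC20 in the first cycle, from 1.18 to -1.36 with the median course removed. Another 4 for entropy, of CDC5 and DBF2, turned from lower to higher in S phase. For entropy, changes of sign were tallied apart only for genes lower in S phase in both cycles.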
